A study of Mus musculus with 7 samples.

Results

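Twist1, Twist2, Prrx1 and Prrx2 were taken by their gene symbols, 4 of the 32285 genes counted in each library, and followed through 7 droplet single-cell RNA-sequencing libraries of the neural crest cell (NCC) lineage in the mouse embryo. Every embryo carried Wnt1-Cre/+ and ROSA-EGFPf/+, and EGFP-positive cells were sorted, so that dorsal neural tube cells marked by Wnt1-Cre were collected along with the NCCs that leave the tube. The strain is labelled Swiss-Webster, which the methods describe as a mixed background. Control embryos gave 1 library from the anterior part of the body at E8.5, 1 from the pharyngeal apparatus with the heart at E9.5, and 2 from arches 2 to 6 with the heart at E10.5. Embryos called Tbx1null in the sample titles gave 1 library at E9.5 and 2 at E10.5, from the matching regions, so the first pharyngeal arch was present at E9.5 and absent at E10.5. The genotype label of these 3 libraries reads Wnt1-Cre/+;Tbx1+/-;ROSA-EGFPf/+, which names an intact Tbx1 allele. The paper's sample summary instead lists them as Wnt1-Cre/+;Tbx1-/-;ROSA-EGFPf/+, and its text calls these embryos null. They are called null here after the paper and their titles. Tbx1 was at 0.545 to 5.04 unique molecular identifiers (UMIs) per 1000000 UMIs over all kept cells of a library, too low in sorted NCCs to check the genotype. Each library pooled several embryos, and the library is the replicate. The control library at E8.5 was made with kit version 2, the null library at E9.5 and null replicate 1 at E10.5 with version 3, and the others with version 3.1, so that kit and genotype cannot be told apart at E9.5.

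Twist1 and Twist2 are basic helix-loop-helix (bHLH) transcription factors that pair with E-proteins and bind E-box DNA, and the Id proteins take E-proteins away from such pairs. Prrx1 and Prrx2 are paired-type homeobox factors with overlapping roles in the mesenchyme of the head and limbs. NCCs leave the dorsal neural tube expressing Sox10, and those that fill the pharyngeal arches become mesenchyme, while others form glia and neurons. Hox genes record the level of origin: first arch mesenchyme lacks them, second arch mesenchyme expresses group 2, and more caudal mesenchyme, the source of the cardiac NCCs, expresses groups 3 to 5 as well. Cardiac NCCs near the outflow tract express the forkhead gene Foxf1, and some differentiate into smooth muscle, for which the actin gene Acta2 and the transgelin gene Tagln are early markers.

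The genes lie on 3 chromosomes of GRCm38: Twist1 (ENSMUSG00000035799) at chr12:33957671-33959829 on the plus strand, Twist2 (ENSMUSG00000007805) at chr1:91801461-91848028 on the plus strand, Prrx1 (ENSMUSG00000026586) at chr1:163245119-163313710 on the minus strand, and Prrx2 (ENSMUSG00000039476) at chr2:30834972-30881251 on the plus strand. The promoter windows below, from 250 bases before to 50 bases after the RefSeq start of each gene (build GRCm38.p6), are shown because the members shared most of their pattern across cell classes and parted within the mesenchyme. They are written 5′ to 3′ on the strand of the gene, with capitals marking the CCAAT box, the TATA box (as TATAAA) and the homeodomain core TAATTA on that strand.
Twist1 chr12:33957421-33957720: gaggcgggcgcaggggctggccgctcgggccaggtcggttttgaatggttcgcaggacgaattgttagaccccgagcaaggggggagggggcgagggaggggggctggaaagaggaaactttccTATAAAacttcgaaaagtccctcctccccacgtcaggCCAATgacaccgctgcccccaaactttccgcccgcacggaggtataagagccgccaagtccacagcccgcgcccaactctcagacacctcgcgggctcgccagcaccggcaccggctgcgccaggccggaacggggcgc
Twist2 chr1:91801211-91801510: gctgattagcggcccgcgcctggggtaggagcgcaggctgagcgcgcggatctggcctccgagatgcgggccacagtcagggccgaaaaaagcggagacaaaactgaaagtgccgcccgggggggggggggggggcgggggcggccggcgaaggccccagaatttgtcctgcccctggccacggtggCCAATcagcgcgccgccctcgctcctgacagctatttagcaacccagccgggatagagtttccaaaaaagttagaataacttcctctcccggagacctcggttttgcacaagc
Prrx1 chr1:163313601-163313900: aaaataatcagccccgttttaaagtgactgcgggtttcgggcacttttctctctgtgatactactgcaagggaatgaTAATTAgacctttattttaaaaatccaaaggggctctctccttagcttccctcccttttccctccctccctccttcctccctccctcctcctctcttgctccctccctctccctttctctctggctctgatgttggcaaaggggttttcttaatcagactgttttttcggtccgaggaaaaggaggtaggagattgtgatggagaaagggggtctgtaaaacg
Prrx2 chr2:30845117-30845416: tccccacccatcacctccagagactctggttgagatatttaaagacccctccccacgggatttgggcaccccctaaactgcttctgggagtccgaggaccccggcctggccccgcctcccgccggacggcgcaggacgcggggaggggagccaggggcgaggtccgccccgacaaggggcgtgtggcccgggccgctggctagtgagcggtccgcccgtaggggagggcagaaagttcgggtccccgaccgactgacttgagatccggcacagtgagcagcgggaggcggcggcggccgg
The RefSeq start used for the Prrx2 window lies inside the annotated span of the gene given above. Searched on both strands, the E-box letters CANNTG were in none of the 4 windows and in 72.3% of the 32851 RefSeq promoter windows of the same length. The letters CCAAT were in the Twist1 window, 89 bases before the start, and in the Twist2 window, 63 bases before it, and in 37.4% of all windows. TATAAA was in the Twist1 window (126 bases before the start; 13.6% of all windows) and TAATTA, which homeodomains can bind, in the Prrx1 window (173 bases before the start; 5.29% of all windows). The GC content was 66.0% for Twist1, 64.7% for Twist2, 47.7% for Prrx1 and 70.3% for Prrx2, against a median of 52.7% over all windows. These matches describe the letters and not binding.

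The libraries held 5987 to 12047 barcodes and 140264662 to 234844769 UMIs, of which 5587 to 9555 cells per library were kept. No pair of libraries shared more than 0.41% of the barcodes of the smaller library. Clusters were called mesenchymal-like, migrating crest-like or neural-like from fixed markers that did not include the members, and neither the members nor the genes used for gating entered the clustering. Mesenchymal-like cells made up 54.4% and 60.2% of kept cells in control and null embryos at E9.5. At E10.5 they made up 40.8% and 70.8% in control replicates 1 and 2, against 27.8% and 18.8% in null replicates 1 and 2. Blood-like markers summed to 586 UMIs per 1000000 in mesenchymal-like cells of null replicate 2 at E10.5 and to at most 0.73 in those of the other libraries at E9.5 and E10.5. In that library the sum was 669.8 in mesenchymal-like cells with Hox groups 3 to 5, but 7.07 in those with Hox group 2 only and 6.54 in those with Foxf1. No cluster at E8.5 passed as mesenchymal-like, so that library is described apart.

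At E10.5 the 4 genes were high in mesenchymal-like cells and low in migrating crest-like and neural-like cells. Levels are given as UMIs per 1000000 UMIs of the cells summed, written CPM, and the 6 libraries at E9.5 and E10.5 are listed in the order control E9.5, null E9.5, control E10.5 replicates 1 and 2, and null E10.5 replicates 1 and 2. In mesenchymal-like cells Twist1 was at 718, 814, 447, 385, 729 and 470 CPM. Both libraries at E9.5 and null replicate 1 at E10.5 lay above the other 3. Twist2 was at 13.1, 19.9, 118, 107, 87.1 and 82.8 CPM. All 4 libraries at E10.5 lay above both at E9.5. Prrx1 was at 195, 243, 347, 425, 584 and 682 CPM, and Prrx2 at 302, 463, 224, 198, 509 and 485 CPM. At E10.5 the null libraries lay above the control libraries for Twist1 and both Prrx genes, and below them for Twist2. Of all genes tested in this comparison, 45.1% did not overlap between the genotypes. Cells of clusters that stayed unnamed also held the members in the control libraries at E10.5, with Twist2 at 162 CPM (252 cells, replicate 1) and 103 CPM (135 cells, replicate 2), and these cells had a median of 3765 and 4115 UMIs. The counting error of these levels was at most 5.29% of a level (95% Poisson interval), and it does not include the spread between embryos. Levels of different genes are not compared, since 3′ counts are not scaled to one another.

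**Figure D1:**
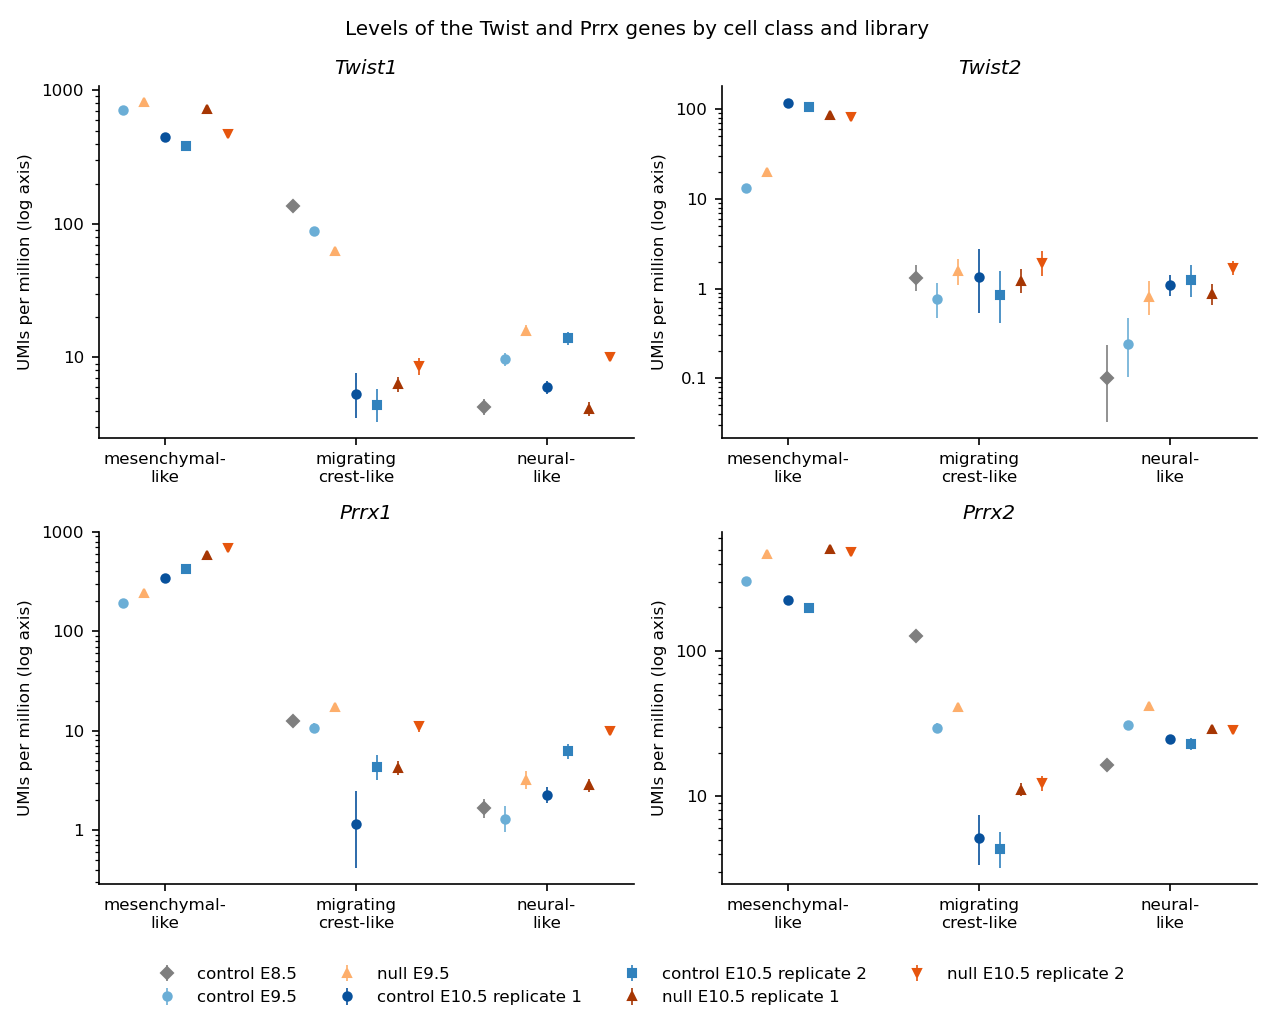
CPM (log axis) of Twist1, Twist2, Prrx1 and Prrx2 in each library, by cell class, with 1 point per library and 95% Poisson intervals as bars. In mesenchymal-like cells Twist2 sits at 13.1 and 19.9 at E9.5 and between 82.8 and 118 at E10.5, and in migrating crest-like and neural-like cells it stays at or below 1.93.

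In migrating crest-like cells, which express Sox10, Twist1 and Prrx2 were lower at each later stage. Twist1 was at 136 CPM in these cells at E8.5, at 88.7 and 62.6 CPM in control and null cells at E9.5, and at 4.41 to 8.56 CPM in the 4 libraries at E10.5. Prrx2 followed the same order, with 127 CPM at E8.5, 29.6 and 41.1 CPM at E9.5 and 4.33 to 12.2 CPM at E10.5. Prrx1 was between 10.8 and 17.4 CPM at E8.5 and E9.5 and between 1.14 and 11.03 CPM at E10.5, and Twist2 was at most 1.93 CPM throughout. Neural-like cells of the 7 libraries held 4.13 to 15.8 CPM of Twist1, 0.102 to 1.71 CPM of Twist2, 1.30 to 9.85 CPM of Prrx1 and 16.4 to 41.8 CPM of Prrx2, the last above its level in migrating crest-like cells at E10.5. Stage at E8.5 cannot be told apart from kit and from the tissue taken.

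Shares of cells with a UMI were compared after each cell was thinned to 5000 UMIs. Of mesenchymal-like cells, 93.5%, 95.05%, 78.6%, 75.5%, 91.4% and 79.0% had a Twist1 UMI, against 1.92% to 7.33% of neural-like cells. Twist2 was detected in 6.67%, 9.33%, 40.9%, 38.9%, 32.4% and 29.3% of mesenchymal-like cells, and in at most 0.878% of neural-like cells. Prrx1 was detected in 59.1%, 67.0%, 63.3%, 69.4%, 85.5% and 80.4%, and Prrx2 in 68.5%, 85.7%, 53.9%, 52.6%, 88.1% and 83.1%. The neural-like shares reached 4.85% for Prrx1 and 16.6% for Prrx2, so all mesenchymal-like shares stood above the background. The order of libraries by share was that by level for Twist2 but not for the other members, and the exact 95% binomial intervals reached at most 2.66 percentage points from a share. Without thinning the Twist2 shares were 25.6%, 31.5%, 79.7%, 71.3%, 75.5% and 71.4%.

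Across the 20 sums of a library and a cell class with at least 50 cells, the levels of the members varied together, with Pearson r of log2(CPM + 1) between 0.82 and 0.95 for the 6 pairs. These sums share libraries and the contrast between mesenchyme and other classes, so r is a description. Over the 7701 genes that reached 20 CPM in one of the sums, the genes most like Twist1 were Fli1 (r = 0.95), an ETS factor of endothelium and mesenchyme, Eva1b (0.94) and the forkhead gene Foxc1 (0.93). Twist2 was most like Dnm3os, a noncoding RNA that hosts microRNAs (0.99), the collagen receptor Ddr2 (0.99) and Capn6 (0.98). Prrx1 was most like Fli1 (0.99), Pdgfrb, a platelet-derived growth factor receptor (0.98), and Cped1 (0.97). Prrx2 was most like Tnfaip6 (0.94), the mesenchymal cadherin Cdh11 (0.94) and Twist1 (0.93). Foxc1 and Pdgfrb were among the markers that named the mesenchymal-like class.

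At E8.5 each member was detected in a larger share of the cells outside the neural-like clusters than of the neural-like cells. In the 3064 kept cells outside neural-like clusters, Twist1 was at 135 CPM, Prrx2 at 116, Prrx1 at 18.9 and Twist2 at 1.37, from a single library. After thinning, 39.8% of these cells had a Twist1 UMI (95% binomial interval 38.1% to 41.6%), 37.7% a Prrx2 UMI (35.9% to 39.4%), 8.86% a Prrx1 UMI (7.88% to 9.92%) and 0.752% a Twist2 UMI (0.477% to 1.13%). The neural-like cells of the library had shares of 2.31%, 6.94%, 0.798% and 0.12% for Twist1, Prrx2, Prrx1 and Twist2. Without thinning the shares outside neural-like clusters were 76.8%, 80.8%, 25.3% and 3.43% in the same order, and those of neural-like cells 6.42%, 24.8%, 2.81% and 0.198%.

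The members were spread unevenly over the E8.5 clusters, which are called by their leading genes. The cluster led by Twist1, Id1 and Prrx2 (88 cells) had 264 CPM of Twist1, 242 of Prrx2 and 43.4 of Prrx1. In a pair of clusters led by Alx1, a paired-type factor of cranial mesenchyme, and Cnn2 (327 and 164 cells), Prrx1 was at 51.7 and 45.0 CPM, beside Prrx2 at 68.7 and 70.1 CPM and Twist1 at 163 and 221 CPM. These were the highest Prrx1 levels among the clusters of at least 50 cells. The cluster led by Crabp1 and Hoxb1 (340 cells) had less Prrx1 than those clusters, at 1.40 CPM, and more Prrx2, at 126 CPM, with 56.9 CPM of Twist1. By Hox UMIs, Twist1 was at 37.4 CPM in cells with Hox groups 3 to 5 (251 cells), 69.0 CPM in those with group 2 only (378 cells) and 155 CPM in those with neither (2435 cells), and Prrx1 at 3.13, 4.40 and 22.7 CPM. Prrx2 was at 46.1, 122 and 122 CPM, so that it set apart only the caudal cells. Foxf1 was found in 8 of the cells, and both Acta2 and Tagln at the gate used later in 8, too few to describe.

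**Figure D2:**
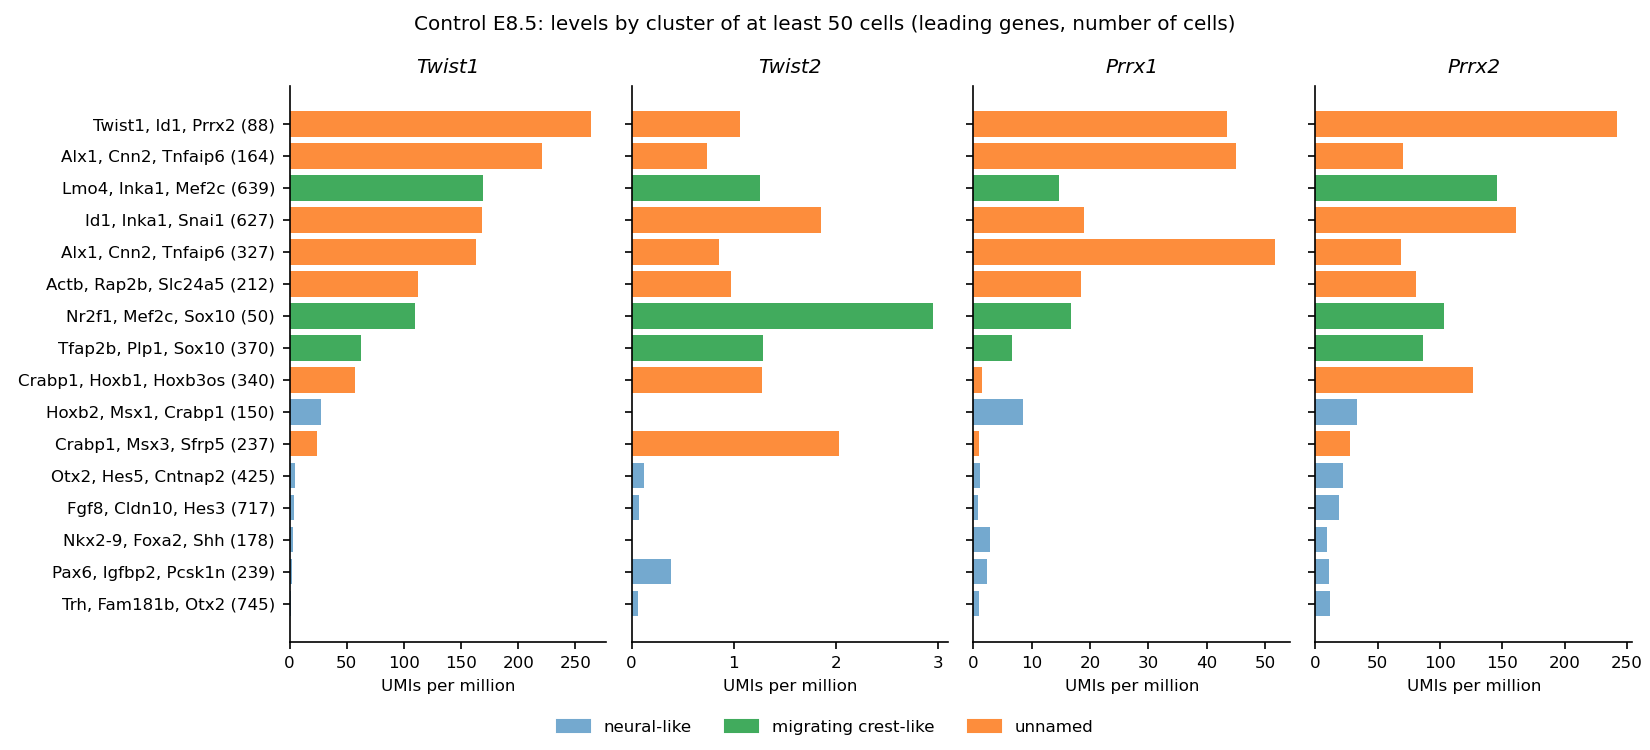
Levels of the 4 genes in CPM (bars from 0, each gene on its own scale) in the clusters of at least 50 cells of the control library at E8.5, labelled by leading genes and number of cells and coloured by class. The Alx1 and Cnn2 clusters stand at 51.7 and 45.0 for Prrx1, and the Crabp1 and Hoxb1 cluster at 1.40 for Prrx1 and 126 for Prrx2.

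Cells with a Sox10 UMI held less of all 4 genes than cells without one at E9.5 and E10.5. Twist1 was at 370, 433, 32.7, 34.1, 59.7 and 51.2 CPM in Sox10 cells and at 500, 614, 246, 326, 320 and 134 CPM in the others, lower in 6 of 6 libraries. Twist2 was at 4.54, 6.52, 6.41, 9.07, 6.72 and 10.3 CPM in Sox10 cells and at 9.83, 16.5, 65.3, 90.7, 38.2 and 23.1 CPM in the others. Both Twist genes were lower in the Sox10 cells of every library, as were both Prrx genes, and 37.4% of all genes tested lay on 1 side in every library. Prrx1 was at 91.8, 108, 22.6, 32.4, 46.2 and 63.1 CPM against 136, 189, 188, 359, 253 and 193 CPM, and Prrx2 at 115, 214, 22.8, 23.5, 48.3 and 56.4 CPM against 234, 369, 133, 170, 238 and 151 CPM. With the library as a block, edgeR's quasi-likelihood test with Benjamini-Hochberg adjustment called all 4 members, beside 36.4% of 16981 genes tested in either direction. The log2 fold changes were -1.72 ± 0.42 (SE) for Twist1 (adjusted p = 0.0149), -2.00 ± 0.35 for Twist2 (adjusted p = 0.00377), -1.88 ± 0.41 for Prrx1 (adjusted p = 0.00916) and -1.72 ± 0.29 for Prrx2 (adjusted p = 0.00326), over 6 libraries. Without null replicate 1 at E10.5 the Twist1 difference was -1.59 with an edgeR adjusted p of 0.0517. Over the alternatives that left out no library the log2 fold changes ran from -3.31 to -1.40 for Twist1 and -3.57 to -1.58 for Twist2. They ran from -3.63 to -1.46 for Prrx1 and -3.18 to -1.42 for Prrx2. Cells with Sox10 made up 26.0%, 20.5%, 3.77%, 7.16%, 18.5% and 17.9% of kept cells. The gate asked for 1 UMI and held several classes. Mesenchymal-like cells were 45.3% and 46.8% of the gated cells at E9.5 and 6.53% to 9.57% at E10.5, and migrating crest-like cells were 53.4%, 50.5%, 84.0%, 88.5%, 85.2% and 59.9%. Sox10 was among the markers that named the migrating crest-like class, and a Sox10 UMI was found in 90.7% to 97.7% of its cells. Such a UMI was found in 0.262% to 7.77% of neural-like cells, and in 21.7%, 15.9%, 0.703%, 0.761%, 4.35% and 9.10% of mesenchymal-like cells. The part of these classes in the Sox10 differences was not tested.

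Some of the members' relatives were also called across the Sox10 gate. Of the 6 Twist-family relatives tested, Hand1, Scx and Tcf21 fell (list median log2 fold change -1.57, against -0.01 over all genes), and the paired-type relatives Alx4 and Shox2 fell. Among the 4 Id genes Id1, Id2 and Id3 fell (median -0.59), and of the 3 E-proteins Tcf4 fell (median -0.04). Of 8 regulators and cadherins of the epithelial to mesenchymal transition (EMT), Snai2, Zeb1 and Cdh11 fell while Zeb2 and Cdh6, a cadherin of premigratory and migrating crest, rose (median -0.06).

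At E8.5 the order of Twist1 was the opposite. It was at 127 CPM in Sox10 cells and 31.9 CPM in cells without Sox10, most of which were neural-like. Outside neural-like clusters, where 85.8% of cells had Sox10, the values were 131 and 164 CPM. The share of cells with both Twist1 and Sox10 UMIs, divided by the share expected if the genes were independent, was 1.54 over all kept cells at E8.5, 0.71 and 0.61 in control and null cells at E9.5, then 0.18, 0.06, 0.11 and 0.33 in the libraries at E10.5. In unthinned cells the ratios of the 7 libraries, in the same order, were 1.64, 1.03, 0.93, 0.32, 0.19, 0.54 and 0.90. Outside neural-like clusters at E8.5 the thinned ratio was 0.91. In a comparison added after the data were seen, the change of the Sox10 difference from E9.5 to E10.5 was -1.99 ± 0.43 for Twist1 (edgeR adjusted p = 0.0507), -1.90 ± 0.44 for Prrx1 (adjusted p = 0.0590), -1.33 ± 0.33 for Prrx2 (adjusted p = 0.0729) and -1.24 ± 0.54 for Twist2 (adjusted p = 0.261) on the log2 scale. None of the 4 was called by edgeR, beside 3.62% of genes, whereas 3 had an unadjusted p under 0.05 and 3 were called by DESeq2. Over the alternatives the adjusted p ran from 0.00061 to 0.363 for Twist1, from 0.00368 to 0.406 for Prrx1, from 0.00207 to 0.442 for Prrx2 and from 0.00951 to 0.705 for Twist2, and with null replicate 2 at E10.5 left out it was under 0.05 for all 4.

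From E9.5 to E10.5 Twist2 and Prrx1 rose in the mesenchyme and Twist1 fell, although not under every scaling of the counts. The comparison used mesenchymal-like cells with a Hox UMI of groups 2 to 5, since first arch cells, which lack Hox, were dissected only at E9.5, and genotype was a term of the fit. Twist2 was at 8.57 and 11.9 CPM at E9.5 and at 119, 106, 85.8 and 81.9 CPM at E10.5, with no overlap, as for 60% of all genes tested. Its log2 fold change was 2.80 ± 0.27 (edgeR adjusted p = 0.00123), and 25.3% of 14923 genes were called in either direction. Prrx1 was at 181 and 227 CPM at E9.5 and at 355, 435, 579 and 686 CPM at E10.5, again with no overlap, and its log2 fold change was 0.86 ± 0.19 (edgeR adjusted p = 0.0163). Twist1 was at 667 and 761 CPM at E9.5 and at 447, 388, 738 and 470 CPM at E10.5, where null replicate 1 overlapped the E9.5 libraries. Its log2 fold change was -0.94 ± 0.24 (edgeR adjusted p = 0.0244). Prrx2 was at 264 and 442 CPM at E9.5 and at 231, 206, 515 and 486 CPM at E10.5, with a log2 fold change of -0.49 ± 0.19 (edgeR adjusted p = 0.0850) that did not pass. These fitted values are scaled by TMM, the trimmed mean of M values, and lie below the ratios of the CPM for all 4 genes. With total UMIs as the library size, an alternative added after the data were seen, the median over all genes was 0.50 in place of 0.07. On that scale the log2 fold changes were 3.24 for Twist2 (edgeR adjusted p = 0.00137), 1.30 for Prrx1 (adjusted p = 0.00463), -0.51 for Twist1 (adjusted p = 0.0929) and -0.05 for Prrx2 (adjusted p = 0.820), so that the Twist1 call was lost.

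With 2 libraries at E9.5, a single library decided some of these calls. The edgeR adjusted p of Prrx1 was 0.128 without the control library at E9.5, 0.184 without the null library at E9.5 and 0.0596 without control replicate 2 at E10.5. That of Twist1 was 0.265 and 0.118 without the control or the null library at E9.5, and 0.0682 and 0.0872 without control replicate 1 or 2 at E10.5. That of Prrx2 was 0.0384 without null replicate 1 at E10.5. Over the alternatives that left out a library the Twist2 call was kept, with an adjusted p of at most 0.0285 over all alternatives. Among the lists, Hand1, Hand2, Scx, Tcf21 and Msc of the 6 Twist-family relatives tested rose (median 2.08, against 0.07 over all genes), as did the paired-type relatives Alx4 and Shox2. Id1 and Id3 of 4 Id genes fell (median -0.36), Snai1, Zeb2 and Cdh6 of 7 EMT genes tested fell (median -0.01), and 0 of 3 E-proteins were called (median 0.04).

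Between mesenchymal-like cells with Hox groups 3 to 5 and those with group 2 only, Twist2 was the member called. It was at 7.12, 10.1, 105, 88.2, 72.8 and 80.7 CPM in the first and at 10.0, 13.5, 130.04, 115, 107 and 92.5 CPM in the second, lower in 6 of 6 libraries, where 10.4% of all genes tested lay on 1 side in every library. The log2 fold change was -0.39 ± 0.05 (edgeR adjusted p = 0.00166, library as a block), and 5.24% of 14231 genes were called. Prrx2 was lower in the caudal cells of both E9.5 libraries (247 against 281 CPM, 421 against 460.0 CPM) and higher in those of the 4 libraries at E10.5 (302, 302, 552 and 493 against 178, 154, 453 and 423 CPM). Its log2 fold change of 0.32 ± 0.14 did not pass the edgeR test (adjusted p = 0.240), nor did those of Prrx1 (0.22 ± 0.09, adjusted p = 0.226) and Twist1 (0.10 ± 0.07, adjusted p = 0.504). At an unadjusted p under 0.05 there were 3 members, and Prrx1 passed without a filter on low counts (0.22, edgeR adjusted p = 0.0499). The Hox genes of the gate are not a result. Alx1 and Shox2 of the 4 paired-type relatives (log2 fold changes 2.47 and 2.65; list median 1.80, against -0.01 over all genes), Tcf21 and Msc of the 6 Twist-family relatives tested (median 0.09) and Id2 of the 4 Id genes (median 0.34) rose in the caudal cells. Cdh11 fell among the 7 EMT genes tested (median -0.07), and 0 of 3 E-proteins were called (median 0.00).

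The Foxf1 gate was meant to take cells near the outflow tract, but the position of cells was not measured. Mesenchymal-like cells with a Foxf1 UMI had less Twist1 in 6 of 6 libraries. Of all genes tested, 15.5% lay on 1 side in every library. Prrx1, Twist2 and Prrx2 were each higher in Foxf1 cells in both libraries at E9.5 and lower in the 4 at E10.5. The share of all genes with that pattern is not given. Twist1 was at 562, 595, 367, 323, 478 and 268 CPM in Foxf1 cells and at 730, 838, 465, 393, 812 and 551 CPM in the others. The log2 fold change was -0.59 ± 0.08 (edgeR adjusted p = 0.00138), with 11.8% of 13861 genes called. Prrx1 was at 229, 265, 160, 212, 343 and 266 CPM in Foxf1 cells against 192, 241, 387, 455, 664 and 849 CPM in the others, so that the direction turned between E9.5 and E10.5. Its log2 fold change over all 6 libraries was -0.82 ± 0.23 (edgeR adjusted p = 0.0427). That call was lost without any 1 of the E10.5 libraries, with adjusted p-values of 0.135 and 0.142 without control replicates 1 and 2 and of 0.115 and 0.0778 without null replicates 1 and 2, with DESeq2 (adjusted p = 0.0777) and with total UMIs as the library size (adjusted p = 0.0620). Twist2 was at 19.3, 30.0, 91.5, 85.2, 71.1 and 75.3 CPM against 12.6, 18.7, 124, 110, 92.3 and 85.8 CPM, and Prrx2 at 491, 552, 178, 194, 474 and 340 CPM against 288, 453, 234, 198, 521 and 543 CPM. Over both stages neither passed, with log2 fold changes of -0.12 ± 0.14 (edgeR adjusted p = 0.659) and -0.08 ± 0.14 (adjusted p = 0.799).

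The change of direction was tested as an interaction of stage with the Foxf1 gate, a comparison added after the data were seen. It used the same libraries that showed the pattern, so it is no independent support for it. The Foxf1 difference at E10.5 minus that at E9.5 was -1.41 ± 0.14 for Prrx1 (edgeR adjusted p = 0.000389), -0.98 ± 0.10 for Twist2 (adjusted p = 0.00037) and -0.80 ± 0.16 for Prrx2 (adjusted p = 0.0223) on the log2 scale, while 2.44% of genes were called. For Twist1 it was -0.14 ± 0.16 (adjusted p = 0.767). The Prrx1 call held under every alternative run, with an adjusted p of at most 0.0331. The Twist2 call was lost without the null library at E9.5 (adjusted p = 0.0501) and when Foxf1 was counted in cells thinned to equal depth (-0.65, adjusted p = 0.572). The Prrx2 call was lost without the control (adjusted p = 0.347) or the null library at E9.5 (0.0680), with DESeq2 (0.181) and when mesenchymal cells were chosen by UMIs (0.0765). In the same test Hand1, Hand2 and Alx4 were lower and Zeb2 higher. The first arch was in the tissue at E9.5 only, and stage and dissection cannot be told apart here. Foxf1 cells were 6.48%, 9.24%, 19.2%, 12.9%, 23.7% and 26.6% of mesenchymal-like cells.

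**Figure D3:**
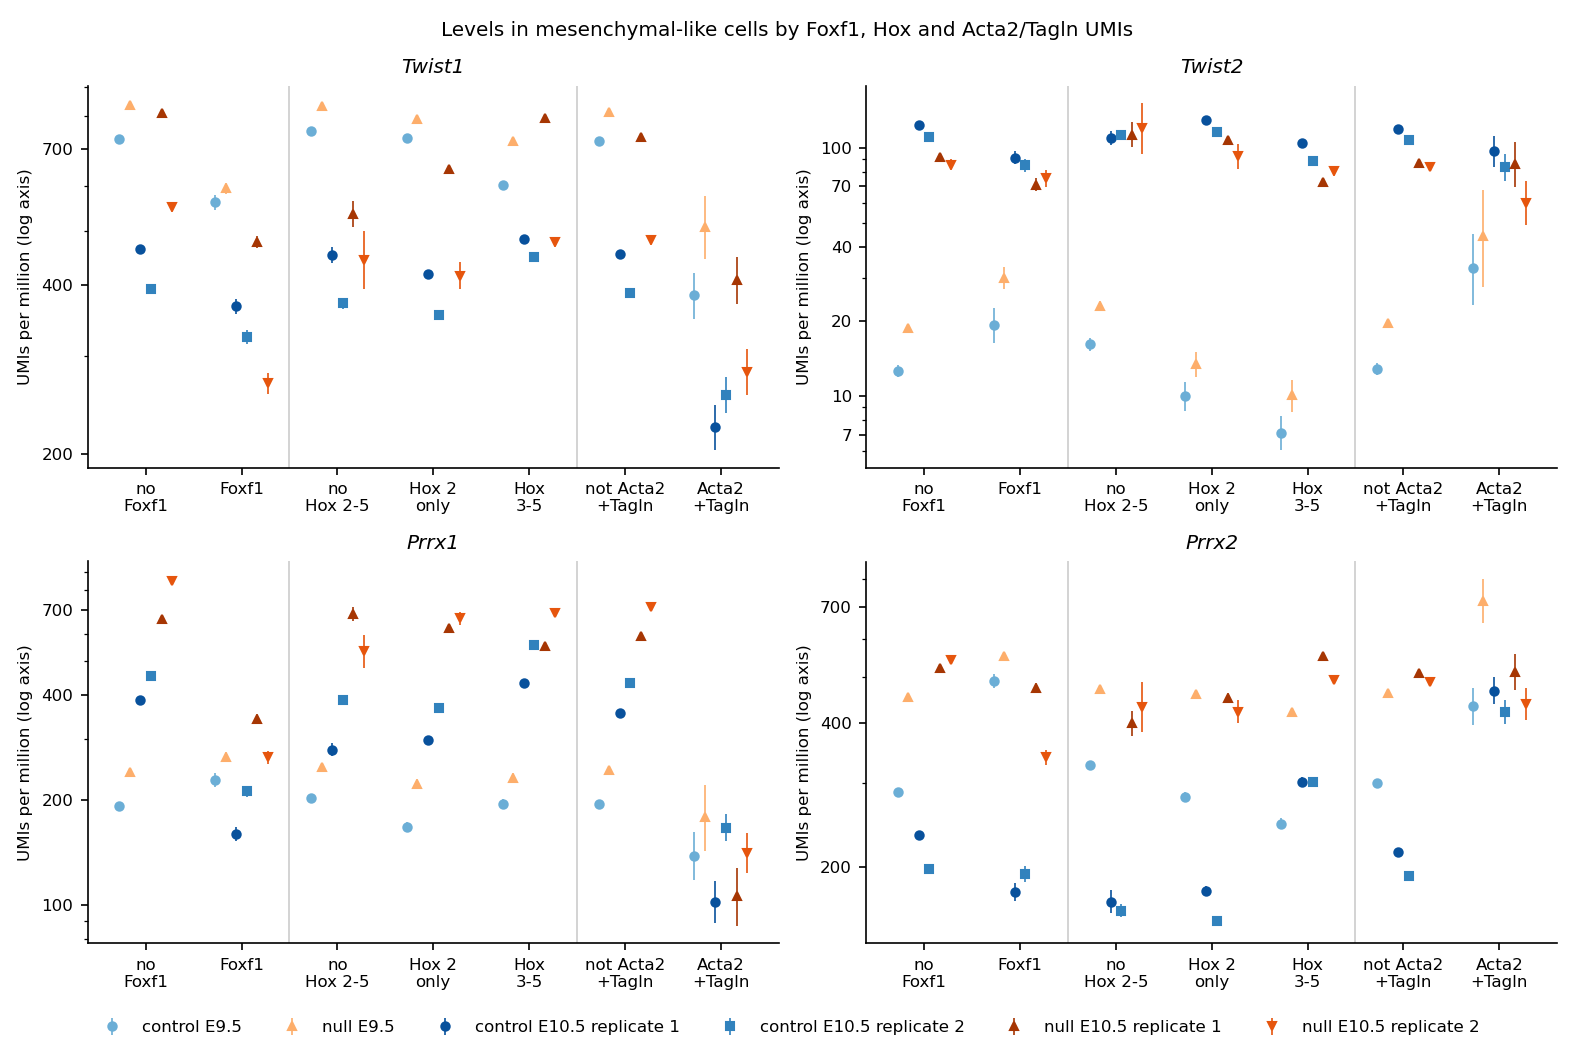
Levels of the 4 genes (CPM, log axis) in mesenchymal-like cells inside and outside the Foxf1, Hox and Acta2 with Tagln gates, with 1 point per library and 95% Poisson intervals as bars. Prrx1 lies higher in Foxf1 cells at E9.5 (229 against 192 in control cells) and lower at E10.5 (266 against 849 in null replicate 2), and Twist1 lies lower in the Acta2 and Tagln cells of each library.

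Most of the Twist-family relatives rose in Foxf1 cells. Of the 6 Twist-family bHLH genes tested, 5 rose: Hand1 (log2 fold change 2.47), Hand2 (1.35), Scx (0.69), Tcf21 (1.84) and Msc (2.81), with a list median of 1.60 against -0.02 over all genes. Hand1 and Hand2 are cardiac and arch factors that can share partners with Twist1. Of the 3 E-proteins Tcf4 (-0.49) and Tcf12 (-0.48) fell (median -0.48), and of the 4 Id genes Id4 rose (0.89; median 0.22). Alx1 (-0.44) and Shox2 (-1.87) of the 4 paired-type relatives fell (median -1.40), and Snai2 (-0.56) and Cdh6 (-1.27) of the 7 EMT genes tested fell (median -0.11).

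The members also varied among the mesenchymal-like clusters at E10.5. Within each library the highest Prrx1 level of a cluster of at least 50 cells was 3.14 to 11.6 times the lowest, and the lowest lay in a cluster led by Tagln and Acta2 (75.0 CPM, control replicate 1), in one led by Hmx1 (100.01 CPM, control replicate 2), or in clusters led by Foxf1 and Col9a1 (251 and 80.2 CPM, null replicates 1 and 2). The highest Prrx1 levels, 598 to 935 CPM, lay in clusters whose leading genes included Prrx1 itself. Twist2 was highest in control clusters led by Hmx1, Dlx5 or 3110099E03Rik (179 and 157 CPM) and in null clusters led by Hand2, Dlk1 or Prrx1 (149 and 145 CPM). Across the 33 such clusters the Pearson r of log2(CPM + 1) was 0.62 for Twist1 with Prrx1 and 0.52 for Prrx1 with Prrx2, but 0.03 for Twist1 with Twist2 and -0.01 for Twist2 with Prrx1. At E9.5 it was 0.76 for Twist2 with Prrx2 and 0.63 for Prrx1 with Prrx2 across 17 clusters, and 0.06 for Twist1 with Twist2. Clusters of 1 library share that library, and these values are descriptions.

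The few mesenchymal-like cells with at least 2 UMIs each of Acta2 and Tagln had less Twist1 and Prrx1 than the others. They were 37, 22, 80, 158, 44 and 56 cells. Twist1 was at 384, 508, 223, 255, 409 and 281 CPM in them and at 721, 815, 455, 388, 735 and 481 CPM in the others. Its log2 fold change was -0.99 ± 0.08 (edgeR adjusted p = 1.36e-06), in a comparison that called 39.8% of 14238 genes and had a median of -0.11 over all genes. Prrx1 was at 139, 179, 102, 167, 106 and 141 CPM against 195, 243, 355, 432, 592 and 714 CPM, with a log2 fold change of -1.68 ± 0.21 (edgeR adjusted p = 4.79e-05). Both were lower in 6 of 6 libraries, where 28.6% of all genes tested lay on 1 side in every library, and both calls held under every alternative run. Prrx2 went the other way in 5 of 6 libraries, with 435, 721, 468, 423, 512 and 439 CPM against 301, 462, 216, 192, 509 and 487 CPM. Its log2 fold change of 0.37 ± 0.16 did not pass (edgeR adjusted p = 0.0848), but it passed with DESeq2 (0.45), with DESeq2 size factors (0.46), with total UMIs as the library size (0.55, adjusted p = 0.0131), without null replicate 1 (0.50, adjusted p = 0.0377) or 2 (0.47, adjusted p = 0.0331) at E10.5, and over the 3 libraries, all at E10.5, with at least 50 gated cells (0.66, adjusted p = 0.0224). Twist2 was at 32.8, 44.3, 97.0, 83.5, 86.3 and 60.2 CPM against 12.9, 19.8, 119, 108, 87.1 and 84.1 CPM, higher at E9.5 and lower at E10.5, with a log2 fold change of -0.09 ± 0.18 (edgeR adjusted p = 0.729). Over the same 3 libraries at E10.5 it was -0.43 and passed (edgeR adjusted p = 0.00225).

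Other markers moved with this gate. The smooth muscle markers Cnn1, Myl9, Rgs5 and Actg2 summed to 585 to 1791 CPM in the gated cells and to 10.9 to 91.5 CPM in the others. The cardiomyocyte-like markers, summed to 1633 CPM in the gated cells of control E9.5 and to 1118 CPM in those of control replicate 1 at E10.5, against 10.6 to 165 CPM in the other 4 libraries. The epithelium-like markers summed to 232 to 609.8 CPM in the gated cells, with 1 or 2 of the 4 at 0, and to 5.28 to 34.9 CPM in the others. The part of these cells in the result was not tested. Of the lists, all 3 E-proteins (median -0.47) and the paired-type relatives Alx1, Alx4 and Shox2 fell, Hand1, Hand2 and Tcf21 rose and Tcf15 fell among 5 Twist-family relatives tested (median 0.97), Id3 and Id4 of 4 Id genes rose (median 0.28), and of 7 EMT genes tested Zeb2 and Cdh2 rose while Cdh6 and Cdh11 fell (median 0.11).

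Among the 4 members, Prrx2 had the largest difference between null and control mesenchyme at E10.5, without passing the test over all genes. In mesenchymal-like cells Prrx2 was at 224 and 198 CPM in the control replicates and at 509 and 485 CPM in the null replicates, with no overlap and a log2 fold change of 1.12 ± 0.24 (edgeR adjusted p = 0.208). Prrx1 was at 347 and 425 CPM against 584 and 682 CPM (0.59 ± 0.24, edgeR adjusted p = 0.410), and Twist2 at 118 and 107 CPM against 87.1 and 82.8 CPM (-0.52 ± 0.22, adjusted p = 0.429). Neither gene overlapped between the genotypes, nor did Twist1, at 447 and 385 CPM against 729 and 470 CPM (0.43 ± 0.31, adjusted p = 0.618). With 2 libraries in each group, 45.1% of all genes tested did not overlap either. None of the 4 was called, beside 0.106% of 15149 genes. At an unadjusted p under 0.05 there were 3, and DESeq2 called 1, Prrx2. The share of all genes at that unadjusted threshold is not given here or in the comparisons below. Across the alternatives the Prrx2 difference was 1.00 to 1.248 on the log2 scale. Over those that left out no library its edgeR or DESeq2 adjusted p ran from 0.000795 to 0.426. It was 1.00 without null replicate 1 and 1.248 without null replicate 2, from fits with 1 null library left. Leaving out each library in turn, the Twist1 difference ran from -0.026 to 0.78, the highest without null replicate 2. The only null library left in that fit differed in kit version from both control libraries, so kit and genotype cannot be told apart there. The smallest p-value that an exact permutation test of 2 against 2 libraries can give is 0.33.

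Summed over all kept cells the genotype differences took another order, and the mesenchymal share was lower in the null libraries. Twist2 was at 62.5 and 83.7 CPM in control cells and at 30.8 and 19.9 CPM in null cells (log2 fold change -1.64 ± 0.32, edgeR adjusted p = 0.223), without overlap, as for 46.4% of all genes tested. Twist1, at 236 and 301 CPM against 259 and 113 CPM (-0.63 ± 0.41, adjusted p = 0.574), and Prrx1, at 180 and 331 CPM against 204 and 161 CPM (-0.61 ± 0.34, adjusted p = 0.529), overlapped between genotypes, as did Prrx2 (128 and 157 CPM against 193 and 128 CPM; 0.06 ± 0.29, adjusted p = 0.948). None of the 4 was called by edgeR, beside 0.082% of 17082 genes, with 1 at an unadjusted p under 0.05 and 1 called by DESeq2, Twist2 in both cases. Without control replicate 1, which left 1 control library, the Twist2 difference was -1.86. In sums over a library, fewer cells of a type and less RNA per cell cannot be told apart.

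The Hox gates, counted in unthinned cells, held different shares of the mesenchyme in control and null libraries. The median depth of mesenchymal-like cells was 23053 and 16290 UMIs in control and 25376.5 and 22008 UMIs in null replicates 1 and 2. The part of depth in these shares was not tested. Cells with Hox groups 3 to 5 were 35.7% and 27.2% of mesenchymal-like cells in control replicates 1 and 2 and 58.6% and 85.5% in null replicates 1 and 2, and cells with group 2 only were 47.8% and 48.1% against 35.7% and 11.5%. The comparison was therefore repeated within gates. In cells with Hox groups 3 to 5 Prrx2 was at 302 and 302 CPM in control and at 552 and 493 CPM in null replicates (0.68 ± 0.24, edgeR adjusted p = 0.439), and Prrx1 at 434 and 556 CPM against 553 and 688 CPM (0.19 ± 0.24, adjusted p = 0.801). The null values of Prrx1 overlapped the control values, those of Prrx2 did not, nor did those of 44.1% of all genes tested. The blood-like markers summed to 669.8 CPM in these cells of null replicate 2 and to at most 0.476 CPM in those of the other libraries at E10.5, and their part in the difference was not tested. Twist2 was at 105 and 88.2 CPM against 72.8 and 80.7 CPM (-0.46 ± 0.21, adjusted p = 0.520) and Twist1 at 484 and 449 CPM against 795 and 477 CPM (0.34 ± 0.32, adjusted p = 0.724). None of the 4 was called by edgeR, beside 0.0216% of 13883 genes, and none by DESeq2, with 1 at an unadjusted p under 0.05. Over the left-out libraries the Prrx2 difference ran from 0.53 to 0.83 and the Twist1 difference from -0.14 to 0.73, the highest of both without null replicate 2.

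In cells with Hox group 2 only, a comparison added after the data were seen, the Prrx differences were wider. Prrx2 was at 178 and 154 CPM in control and at 453 and 423 CPM in null replicates (1.26 ± 0.25, edgeR adjusted p = 0.167), and Prrx1 at 297 and 369 CPM against 621 and 664 CPM (0.81 ± 0.25, adjusted p = 0.345). Neither overlapped, as for 44.6% of all genes tested. Twist2, at 130.04 and 115 CPM against 107 and 92.5 CPM (-0.42 ± 0.24, adjusted p = 0.558), did not overlap and Twist1, at 419 and 354 CPM against 645 and 416 CPM (0.34 ± 0.31, adjusted p = 0.713), did. None of the 4 was called by edgeR, beside 0.126% of 13491 genes, with 2 at an unadjusted p under 0.05, and DESeq2 called 1, Prrx2. Leaving out each library in turn, the Prrx2 difference ran from 1.12 to 1.40 and the Prrx1 difference from 0.65 to 0.98.

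The difference between the Hox gates was itself tested, again as an added comparison, with the library as a block. The genotype effect in cells with Hox groups 3 to 5 minus that in cells with group 2 only was -0.60 ± 0.07 for Prrx1 (edgeR adjusted p = 0.000951) and -0.57 ± 0.07 for Prrx2 (adjusted p = 0.00117) on the log2 scale, 2 of the 4 members, beside 1.31% of 14358 genes called. It was 0.01 ± 0.06 for Twist1 (edgeR adjusted p = 0.971) and -0.06 ± 0.10 for Twist2 (adjusted p = 0.879). Without null replicate 2, which left 1 null library, the Twist2 value was -0.22. Both Prrx calls held under every alternative run, with adjusted p-values of at most 0.0103 for Prrx1 and 0.0249 for Prrx2. Hand1, Hand2, Scx, Alx4, Id1 and Id3 of the lists were lower in the same test, as were the smooth muscle genes Tagln (-2.61) and Acta2 (-2.35), and Tcf4 was higher. In the group 2 cells of null replicate 2 the smooth muscle markers summed to 237 CPM, against 39.0 to 51.2 CPM in the other 3 libraries at E10.5. In the cells with Hox groups 3 to 5 of the same library the blood-like markers summed to 669.8 CPM. The part of such cells in the Prrx differences was not tested, and without that library they were -0.74 for Prrx1 and -0.59 for Prrx2.

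In Foxf1 cells Prrx2 was at 178 and 194 CPM in control and at 474 and 340 CPM in null replicates (1.08 ± 0.25, edgeR adjusted p = 0.196) and Prrx1 at 160 and 212 CPM against 343 and 266 CPM (0.65 ± 0.25, adjusted p = 0.382). Neither overlapped between the genotypes, nor did Twist2, as for 43.9% of all genes tested. Twist1 was at 367 and 323 CPM against 478 and 268 CPM (0.06 ± 0.30, adjusted p = 0.954), overlapping, and Twist2 at 91.5 and 85.2 CPM against 71.1 and 75.3 CPM (-0.33 ± 0.21, adjusted p = 0.567). None of the 4 was called by edgeR, beside 0.0712% of 12636 genes, with 2 at an unadjusted p under 0.05, and DESeq2 called 1, Prrx2. With each library left out in turn, the Prrx2 difference ran from 0.78 to 1.32 and the Prrx1 difference from 0.42 to 0.85. The genotype effect on Twist1 was lower in Foxf1 cells than in the other mesenchymal-like cells, by -0.54 ± 0.07 on the log2 scale (edgeR adjusted p = 0.00506), 1 of the 4 members, beside 1.63% of 13738 genes called. This call was lost without control replicate 2 (-0.52, adjusted p = 0.127). For Prrx1 (-0.07 ± 0.16), Prrx2 (-0.14 ± 0.15) and Twist2 (0.16 ± 0.09) the edgeR adjusted p-values were 0.892, 0.722 and 0.447. With null replicate 1 left out Prrx1 was at -0.48 and Prrx2 at -0.45, and without null replicate 2 Prrx1 was at 0.24. These fits had 1 null library left, and only their effect sizes are given. In this test Id1 (-0.89), Id2, Id3 and Snai1 were lower and Tcf4 was higher.

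By edgeR, 0 genes of the 5 lists were called in any of the 5 comparisons of null with control cells, with 8 of 25 listed genes at an unadjusted p under 0.05 over all kept cells, 8 of 24 in mesenchymal-like cells, 6 of 22 in those with Foxf1, 5 of 24 in those with Hox groups 3 to 5 and 9 of 22 in those with group 2 only. The share of all genes at that unadjusted threshold is not given, so these counts are not read as a result about the lists. DESeq2 called 5, 5, 2, 1 and 3 of the listed genes in the same order. In mesenchymal-like cells these were Tcf4 and Tcf15, lower in null cells, and Msc, Snai1 and Alx1, higher. The list medians in mesenchymal-like cells were -0.20 for the E-proteins, 0.73 for the Id genes, -0.13 for the Twist-family relatives, -0.24 for the EMT genes and 0.09 for the paired-type relatives, against -0.01 over all genes and 0.51 over the members. At E9.5 each genotype has 1 library, and the null levels were above the control levels for all 4 genes in mesenchymal-like cells (814 against 718, 19.9 against 13.1, 243 against 195 and 463 against 302 CPM for Twist1, Twist2, Prrx1 and Prrx2). This difference was not tested, and the libraries also differed in kit.

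**Figure D4:**
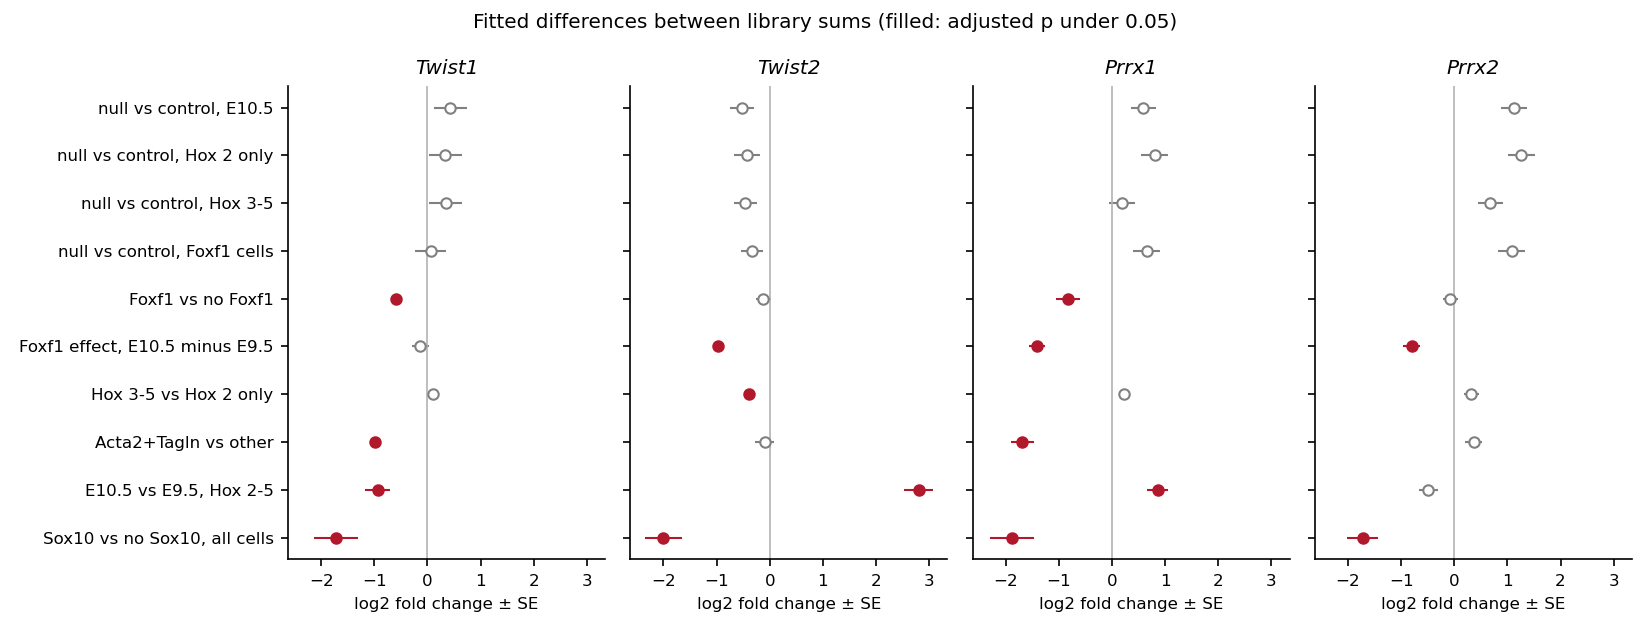
Log2 fold changes of the 4 genes (points) with their standard errors (bars) in the comparisons within mesenchymal-like cells, for the Foxf1 gate also its change with stage, and between cells with and without Sox10. Filled points had an edgeR adjusted p under 0.05. Prrx2 stands at 1.12 in null against control mesenchymal-like cells without passing, and Twist2 at 2.80 in E10.5 against E9.5 cells.

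Within mesenchymal-like cells the members were detected together nearly as often as independence would give. For the 6 pairs in 6 libraries, the share of thinned cells with both genes over the expected share was 0.96 to 1.12, and above 1 in 33 of 36 cases. Prrx1 with Prrx2 had ratios of 1.04, 1.02, 1.12, 1.11, 1.01 and 1.05, with 42.2%, 58.4%, 38.1%, 40.5%, 76.4% and 70.5% of cells holding both. Over all kept cells, where mesenchymal and other cells are mixed, the same pair had ratios of 1.42 to 2.89 at E9.5 and E10.5. All 4 members were found in 2.85%, 5.79%, 14.5%, 13.3%, 23.0% and 18.0% of thinned mesenchymal-like cells, and none of them in 1.07%, 0.623%, 3.67%, 3.69%, 0.498% and 1.83%. The share of cells with all 4 was higher in each library at E10.5 than in both at E9.5, and null cells at E10.5 held all 4 more often than control cells in both replicates. The shares with Prrx1 and with Prrx2 were also higher in both null libraries at E10.5, and their part in this order was not tested. No such share for other sets of genes is given. Ratios near 1 are also what sparse counts of genes present in most cells give.

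**Figure D5:**
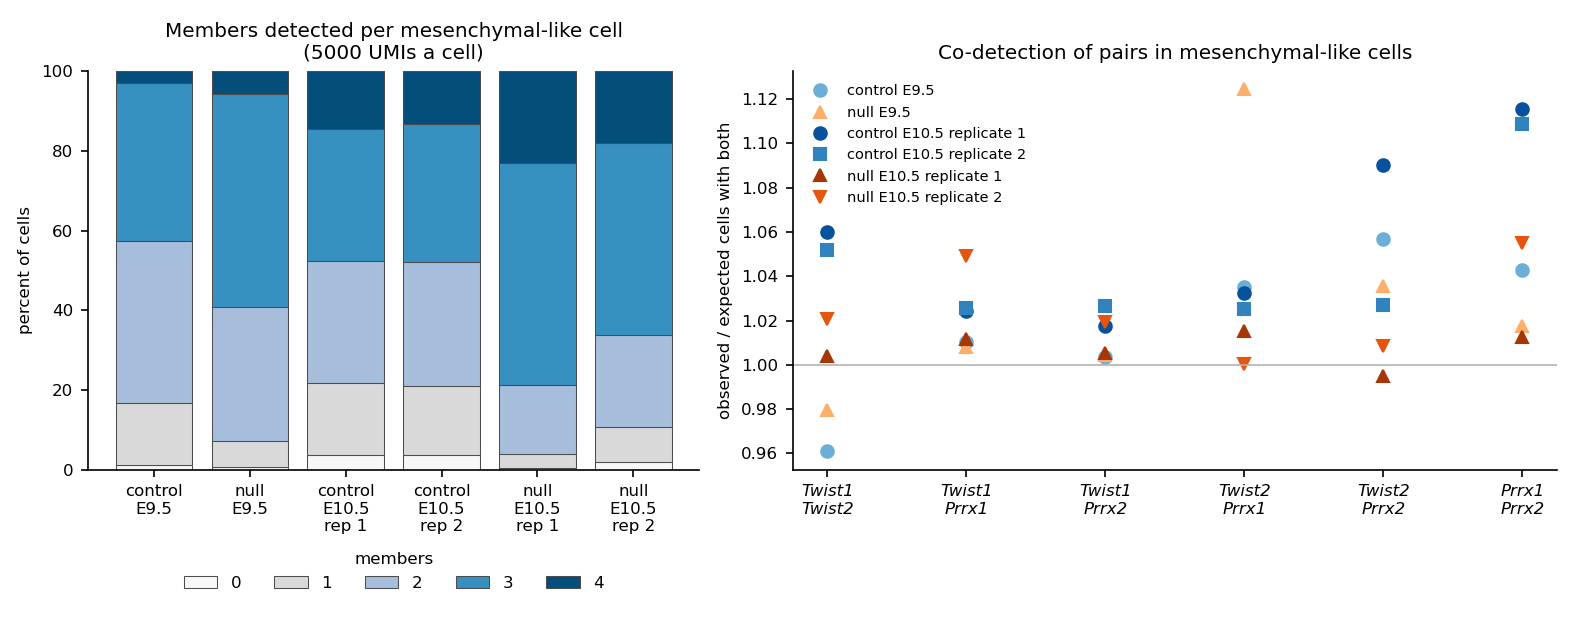
Co-detection in mesenchymal-like cells thinned to 5000 UMIs, by library. Stacked bars give the percent of cells with 0 to 4 members detected, and points the ratio of observed to expected cells with both members of a pair, on an axis that does not start at 0. Ratios lie between 0.96 and 1.12, and the percent of cells with all 4 members runs from 2.85% in control E9.5 to 23.0% in null replicate 1 at E10.5.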

How the data were processed

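The authors deposited raw UMI counts per gene and barcode for 7 sorted 10x Genomics 3′ libraries, which the submitters' processing notes credit to Cell Ranger 6.0.1 and mm10. Counts were used as deposited. Barcodes needed 1000 detected genes or more and no more than 10% of UMIs from mitochondrial genes, and the top Scrublet scores, 0.8% per 1000 barcodes, were removed as doublets. Each library was clustered (scanpy 1.11.5, 2000 variable genes, 30 components, 20 neighbours, resolution 1) without the members and gate genes, and a cluster was named only from fixed markers, since no annotation of cells was used here. Cell classes may therefore differ from those of the study. Gates needed 1 UMI of Foxf1, Sox10 or a Hox gene, or 2 UMIs each of Acta2 and Tagln.

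Counts summed per library and cell group were tested with the quasi-likelihood test of edgeR 4.0.16 (TMM, R 4.3.3), adjusted over all genes by Benjamini-Hochberg, with a threshold of 0.05, and with DESeq2 1.42.0 as an alternative. The SE given with an edgeR log2 fold change is the size of that change divided by the square root of the test's F statistic, and not a separately fitted error. The tests were tested on simulated data. P-values measure only the spread between these pools of embryos. Shares of cells with a member used cells thinned to 5000 UMIs, and shares of cells in a gate used unthinned counts. Other alternatives changed the scaling, filters, doublets, gates and thinning, also of the shares, chose mesenchymal cells by UMIs, or left out a library. The genes named were the members, the gate genes, 5 lists of related genes and the 3 genes most like each member. Members, lists and gates were chosen with earlier results of these data known. The Hox group 2 comparison, the genotype by Hox, stage by Foxf1 and stage by Sox10 interactions, the gate counted in thinned UMIs or limited to 50 cells, and total UMIs as the library size in place of TMM were chosen after seeing the data. The values of 1 listed gene are not reported here. E8.5 entered no test. Intervals cover counting error only.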

Additional observations from a re-analysis of the deposited data

Results flagged for a closer look

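The differences between groups below passed a test of the difference itself, each by edgeR's quasi-likelihood test with Benjamini-Hochberg adjustment on log2 values. The genotype effect at E10.5 differed between mesenchymal-like cells with and without Foxf1 for Twist1 (-0.54), and between cells with Hox groups 3 to 5 and with group 2 only for Prrx1 (-0.60) and Prrx2 (-0.57). The effect of the Foxf1 gate differed between E10.5 and E9.5 for Prrx1 (-1.41), Twist2 (-0.98) and Prrx2 (-0.80). Both Hox differences and the Prrx1 difference between stages held in the alternatives run, while each of the others was lost in at least 1 that left out a library.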

How the results depend on the processing

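Of the log2 fold changes of members under alternatives other than leaving out a library, 490 kept direction and side of the threshold, 41 passed where they had not, 7 no longer passed and 18 reversed. In the lists below, "called" marks a value that now passed and "lost" one that no longer did. With the settings used throughout, the genes called numbered 14 for null against control in all cells, 16 for null against control in mesenchyme, 9 for null against control in Foxf1 cells, 3 for null against control in Hox 3 to 5 cells, 1631 for the Foxf1 gate, 746 for the Hox gate, 5667 for the Acta2 and Tagln gate, 6187 for the Sox10 gate, 3770 for stage, 224 for genotype by Foxf1, 17 for null against control in Hox 2 cells, 188 for genotype by Hox, 338 for stage by Foxf1 and 614 for stage by Sox10. With DESeq2, the genes called numbered 375 for null against control in all cells, 285 for null against control in mesenchyme, 109 for null against control in Foxf1 cells, 97 for null against control in Hox 3 to 5 cells, 113 for genotype by Foxf1, 162 for null against control in Hox 2 cells, 92 for genotype by Hox and 1258 for stage by Sox10, while log2 fold changes were Twist2 -1.62 (called) in null against control in all cells, Prrx2 1.13 (called) in null against control in mesenchyme, Prrx2 1.07 (called) in null against control in Foxf1 cells, Prrx1 -0.81 (lost) in the Foxf1 gate, Twist2 0.064 and Prrx2 0.45 (called) in the Acta2 and Tagln gate, Prrx2 -0.53 (called) in stage, Prrx2 1.25 (called) in null against control in Hox 2 cells, Prrx2 -0.84 (lost) in stage by Foxf1, Twist1 -2.02 (called), Prrx1 -1.95 (called) and Prrx2 -1.36 (called) in stage by Sox10. With DESeq2 size factors in edgeR, the genes called numbered 10 for null against control in mesenchyme, while log2 fold changes were Prrx1 -0.81 (lost) in the Foxf1 gate, Prrx2 0.46 (called) in the Acta2 and Tagln gate, Twist1 -0.0046 in genotype by Hox. With total UMIs as the library size, the genes called numbered 2 for null against control in all cells, 7 for null against control in mesenchyme, 5689 for stage and 4 for null against control in Hox 2 cells, while log2 fold changes were Prrx1 -0.77 (lost) in the Foxf1 gate, Twist2 0.043 and Prrx2 0.55 (called) in the Acta2 and Tagln gate, Twist1 -0.51 (lost) in stage, Twist1 -0.019 in genotype by Hox. Without a filter on low counts, the genes called numbered 370 for null against control in all cells, 696 for null against control in mesenchyme, 412 for null against control in Foxf1 cells, 438 for null against control in Hox 3 to 5 cells, 1134 for the Hox gate, 1031 for genotype by Foxf1, 512 for null against control in Hox 2 cells, 599 for genotype by Hox and 1111 for stage by Foxf1, while log2 fold changes were Twist2 -1.63 (called) in null against control in all cells, Prrx2 1.10 (called) in null against control in mesenchyme, Prrx2 1.06 (called) in null against control in Foxf1 cells, Prrx1 0.22 (called) in the Hox gate, Prrx2 1.22 (called) in null against control in Hox 2 cells, Twist1 -1.93 (called), Prrx1 -1.84 (called) and Prrx2 -1.27 (called) in stage by Sox10. With a floor of 200 genes and a ceiling of 5% mitochondrial UMIs per cell, the genes called numbered 5 for null against control in all cells, 4 for null against control in Foxf1 cells, 141 for genotype by Foxf1 and 6 for null against control in Hox 2 cells, while log2 fold changes were Twist1 -0.0045 in genotype by Hox. With doublets kept, the genes called numbered 2 for null against control in mesenchyme, while log2 fold changes were Twist1 -0.027 in null against control in Foxf1 cells, Twist1 -1.51 (called) and Prrx1 -1.35 (called) in stage by Sox10. With counts thinned to 5000 UMIs, the genes called numbered 63 for null against control in Foxf1 cells, 6 for null against control in Hox 3 to 5 cells, 1053 for the Foxf1 gate, 3389 for the Acta2 and Tagln gate, 125 for genotype by Foxf1, 98 for genotype by Hox, 149 for stage by Foxf1 and 272 for stage by Sox10, while log2 fold changes were Prrx2 1.17 (called) in null against control in Foxf1 cells, Prrx2 0.43 (called) in the Acta2 and Tagln gate, Prrx1 0.070 in genotype by Foxf1, Twist1 -0.066 in genotype by Hox, Twist1 0.014 in stage by Foxf1, Twist1 -1.82 (called) in stage by Sox10. With mesenchymal cells chosen by UMIs, the genes called numbered 5 for null against control in Foxf1 cells, 116 for genotype by Foxf1 and 119 for stage by Foxf1, while log2 fold changes were Prrx2 -0.70 (called) in stage, Prrx2 -0.62 (lost) in stage by Foxf1. With the gate minimum doubled, the genes called numbered 6 for null against control in Hox 3 to 5 cells, 27 for null against control in Hox 2 cells, 293 for genotype by Hox, 223 for stage by Foxf1 and 1375 for stage by Sox10, while log2 fold changes were Twist1 -0.18 in null against control in Foxf1 cells, Twist1 0.028 in stage by Foxf1, Twist1 -3.15 (called), Prrx1 -3.21 (called) and Prrx2 -2.31 (called) in stage by Sox10. With the gate counted in thinned UMIs, the genes called numbered 53 for null against control in Foxf1 cells, 5 for null against control in Hox 3 to 5 cells, 993 for the Foxf1 gate, 3304 for the Acta2 and Tagln gate, 3937 for the Sox10 gate, 44 for null against control in Hox 2 cells, 59 for stage by Foxf1 and 380 for stage by Sox10, while log2 fold changes were Twist1 -0.21 and Prrx2 1.31 (called) in null against control in Foxf1 cells, Prrx2 0.48 (called) in the Acta2 and Tagln gate, Prrx1 0.26 and Prrx2 0.056 in genotype by Foxf1, Prrx2 1.32 (called) in null against control in Hox 2 cells, Twist1 -0.020 and Twist2 0.026 in genotype by Hox, Twist1 0.20 and Twist2 -0.65 (lost) in stage by Foxf1, Twist1 -2.56 (called), Prrx1 -2.09 (called) and Prrx2 -1.43 (called) in stage by Sox10. With gates of at least 50 cells only, log2 fold changes were Twist2 -0.43 (called) and Prrx2 0.66 (called) in the Acta2 and Tagln gate. With the replicate block, the genes called numbered 133 for null against control in all cells, 253 for null against control in mesenchyme, 845 for null against control in Foxf1 cells, 105 for null against control in Hox 3 to 5 cells and 368 for null against control in Hox 2 cells, while log2 fold changes were Twist2 -1.67 (called) in null against control in all cells, Prrx2 1.12 (called) in null against control in mesenchyme, Twist1 -0.0041, Prrx1 0.65 (called) and Prrx2 1.05 (called) in null against control in Foxf1 cells, Prrx2 1.26 (called) in null against control in Hox 2 cells. Calls that rose and fell, with TMM and then with total UMIs, numbered 2 and 14 against 0 and 7 for null against control in mesenchyme, 2 and 15 against 0 and 4 for null against control in Hox 2 cells, 743 and 888 against 1031 and 516 for the Foxf1 gate, 2419 and 3248 against 3157 and 1940 for the Acta2 and Tagln gate, 3036 and 3151 against 2357 and 3793 for the Sox10 gate, 1970 and 1800 against 5023 and 666 for stage and 129 and 95 against 107 and 120 for genotype by Foxf1. The change of scaling moved the median log2 fold change of all genes from 0.07 to 0.50 for stage and by less than that in the other comparisons. Of the alternative values of the share of cells with a member, 58 lay outside the counting interval of the reported share, 28 of them without thinning and 28 with thinning to 3000 UMIs, and 54 lay inside. The replicate numbers link libraries only by number: across genes, the deviations of same-numbered control and null libraries from their group means had a correlation of 0.133 to 0.201 in the 4 comparisons checked, with 2 pairs. The cause of these changes was not tested. Leaving out each library in turn gave calls of 0 to 336 for null against control in all cells, 123 to 811 for null against control in mesenchyme, 84 to 1332 for null against control in Foxf1 cells, 21 to 1487 for null against control in Hox 3 to 5 cells, 908 to 2061 for the Foxf1 gate, 340 to 809 for the Hox gate, 4349 to 5524 for the Acta2 and Tagln gate, 3804 to 5663 for the Sox10 gate, 209 to 5822 for stage, 37 to 1385 for genotype by Foxf1, 74 to 970 for null against control in Hox 2 cells, 52 to 815 for genotype by Hox, 51 to 489 for stage by Foxf1 and 16 to 1095 for stage by Sox10. Log2 fold changes that then changed call or direction ran over Twist2 -2.03 to -1.32 and Prrx2 -0.31 to 0.37 for null against control in all cells, Twist1 -0.026 to 0.78 and Prrx2 1.00 to 1.25 for null against control in mesenchyme, Twist1 -0.46 to 0.44, Prrx1 0.42 to 0.85 and Prrx2 0.78 to 1.32 for null against control in Foxf1 cells, Twist1 -0.14 to 0.73 and Prrx2 0.53 to 0.83 for null against control in Hox 3 to 5 cells, Twist1 -0.12 to 0.69, Prrx1 0.65 to 0.98 and Prrx2 1.12 to 1.40 for null against control in Hox 2 cells, Prrx1 -1.02 to -0.65 and Prrx2 -0.23 to 0.042 for the Foxf1 gate, Twist2 -0.28 to 0.033 and Prrx2 0.24 to 0.50 for the Acta2 and Tagln gate, Twist1 -2.02 to -1.41 for the Sox10 gate, Twist1 -1.14 to -0.78, Prrx1 0.70 to 1.01 and Prrx2 -0.69 to -0.28 for stage, Twist1 -0.71 to -0.44, Prrx1 -0.48 to 0.24 and Prrx2 -0.45 to 0.084 for genotype by Foxf1, Twist1 -0.048 to 0.072 and Twist2 -0.22 to 0.19 for genotype by Hox, Twist2 -1.03 to -0.93 and Prrx2 -1.04 to -0.56 for stage by Foxf1, Twist1 -2.32 to -1.70, Twist2 -1.69 to -0.93, Prrx1 -2.22 to -1.58 and Prrx2 -1.59 to -1.11 for stage by Sox10. Where 1 library was left in a genotype, it was assumed to vary like the others. With 2 libraries a genotype at E10.5 and 1 at E9.5, the number of libraries limits what the tests can show, and counting error was at most 5.29% of a member's level in mesenchymal-like cells.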
